A study of Mus musculus with 24 samples.

Results

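B cell progenitors were compared with common lymphoid progenitors (CLPs) in mice whose blood cells lacked phospholipase Cγ2 (PLCγ2) and kept PLCγ1, the genotype Plcg1+/+Plcg2-/- (PLCgamma1+/+PLCgamma2-/- in the labels). The 6 libraries of this genotype, 1 CLP and 1 B cell progenitor library from each of 3 mice, are 6 of the 24 libraries of the series, and the mouse identifier in the labels pairs them. The other 18 libraries, which entered the same fit, hold 6 libraries each of wild-type Plcg1+/+Plcg2+/+ marrow, of Plcg1-/-Plcg2+/+ marrow and of marrow labelled Plcg1-/-Plcg2-/-. Per the study's methods, donors of every genotype received poly(I-C), which induces Cre from the interferon-responsive Mx promoter, and only Plcg1 was removed in this way, while the loss of Plcg2 was inborn. Donor marrow was transplanted into lethally irradiated wild-type CD45.1+ recipients, and donor-derived CD45.2+ cells were sorted as Lin-IL-7R+ (CLP) or B220+IgM-IL-7R+ (B cell progenitor). The sources used here do not give the number of donors, so n = 3 counts recipients, which may share a donor. The gene-level p-values and standard errors of the main fit rest on a spread between recipients estimated over all 12 mice of the 4 genotypes. They do not measure the spread of these 3 mice alone. Ages of the sequenced mice are not in the labels.

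CLPs are marrow cells that can still become B, T, NK or innate lymphoid cells, and B cell progenitors have entered the B lineage under the transcription factors E2A, EBF1 and PAX5. IL-7 from the stroma keeps both alive and dividing through its receptor, the kinases JAK1 and JAK3 and the factor STAT5. PLCγ enzymes cut a membrane lipid into diacylglycerol and IP3, which act through protein kinase C, Ras activators and calcium, and PLCγ2 serves the pre-B cell receptor and the B cell receptor. The comparison asks what separates the sorted populations when PLCγ1 is the one PLCγ present.

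Reads on genes numbered 4232345 to 22245995 in the 3 CLP libraries and 1479582 to 18959055 in the 3 B cell progenitor libraries. Levels are given as normalised CPM, the read count of a gene scaled to a common library size after TMM normalization. Differences are log2 fold changes, B cell progenitor minus CLP, with a standard error (SE) from edgeR's quasi-likelihood test with the mouse as a block. A gene was called, and is said to have risen or fallen, where its p, adjusted by Benjamini-Hochberg over the 17212 genes tested, was 0.05 or less and its log2 fold change was 0.5 or more in either direction, which is 1.41-fold. All adjusted p-values below are of this kind unless DESeq2 is named. The cells were sequenced in bulk, so fewer cells of a type and less RNA per cell cannot be told apart.

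The targeted gene was checked first. Plcg2 stood at 128, 101 and 137 CPM in the CLPs of mice 1, 2 and 3 and at 94.0, 94.9 and 78.0 CPM in their B cell progenitors. In Plcg1+/+Plcg2+/+ it stood at 195, 281 and 222 CPM in CLPs and at 211, 242 and 247 CPM in B cell progenitors, so each Plcg1+/+Plcg2-/- library lay below all 6 of these. The counts cover the whole gene and do not show whether the remaining transcript can be translated. Between the populations without PLCγ2 the Plcg2 difference was -0.43 ± 0.155 (SE, adjusted p = 0.154), and the CLP and B cell progenitor values did not overlap. Plcg1, the isoform that remained, measured 90.2, 96.8 and 93.7 CPM in CLPs and 77.3, 113 and 106 CPM in B cell progenitors, a difference of 0.06 ± 0.187 (adjusted p = 0.889). In the libraries labelled Plcg1-/-, Plcg1 was not lower throughout, at 60.3 to 140 CPM in Plcg1-/-Plcg2+/+ and 56.0 to 185 CPM in Plcg1-/-Plcg2-/- against 81.1 to 112 CPM in Plcg1+/+Plcg2+/+. The counts over the whole gene thus do not show the loss of Plcg1, and these libraries are named by their labels below. The study examined the proteins by western blot. It found neither PLCγ1 nor PLCγ2 in YFP+ marrow cells of recipients of Plcg1-/-Plcg2-/- marrow, and reported that YFP went closely with deletion of PLCγ1. The sorts for sequencing are described by CD45.2 and not by YFP.

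The sort labels were checked against markers before any comparison, because the libraries labelled CLP carried B lineage transcripts at levels that overlapped those of the B cell progenitors. Cd79a, a signalling chain of the pre-B and B cell receptors, measured 407, 259 and 429 CPM in CLPs and 312, 691 and 568 CPM in B cell progenitors. Its difference was 0.48 ± 0.462 (adjusted p = 0.6), with mouse 1 lower and mice 2 and 3 higher in B cell progenitors. The summed level of 7 B lineage markers (Cd79a, Cd79b, Igll1, Vpreb1, Pax5, Ebf1 and Rag1) was 1985, 1366 and 2716 CPM in CLPs and 1742, 3979.5 and 3130.3 CPM in B cell progenitors. These ranges overlapped (exact two-sided permutation test, p = 0.3, where 3 against 3 cannot go below 0.1), and none of the 7 markers was called. The CLP and multipotent progenitor markers (Il7r, Flt3, Kit, Cd34, Ly6a and Ly6d) summed to 699, 1535 and 624 CPM in CLPs and to 696, 714 and 546 CPM in B cell progenitors. The CLP library of mouse 2 was the one that stood high. The myeloid markers were present in both populations, with Mpo, the granule peroxidase of neutrophil precursors, at 4111, 1345 and 1851 CPM in CLPs and 3956, 735 and 1572 CPM in B cell progenitors. Of the 5 erythroid markers, Hbb-b1 and Hba-a1 had 0 reads in all 6 libraries, and the other 3 stood above 1 CPM in every library. The 5 summed to 41.1 to 77.2 CPM in CLPs and to 19.99 to 66.6 CPM in B cell progenitors, with overlapping ranges.

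The distance between the sorted populations differed between mice. Over 6475 genes with a mean log2 CPM above 4 and no exon shared with a gene of the other strand, 41 genes (0.633%) lay at least 2-fold apart between the paired libraries of mouse 1. The same count was 843 (13%) in mouse 2 and 212 (3.27%) in mouse 3. Pearson's r between the log2 CPM of a mouse's own libraries was 0.970, 0.863 and 0.946, a description across genes, which are not independent replicates. The CLP library of mouse 1 was thus closer to the B cell progenitor library of the same mouse than to the CLP libraries of mice 2 (r = 0.934) and 3 (r = 0.960).

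The populations also differed in where reads fell. Of all counted reads, 25.9%, 28.9% and 45.2% lay on no gene in CLPs of mice 1, 2 and 3, a mean of 33.4% ± 10.4 (SD, n = 3). In B cell progenitors the shares were 63.8%, 75.8% and 74.9%, a mean of 71.5% ± 6.69 (SD, n = 3). The populations did not overlap (38.2 percentage points apart, exact two-sided permutation test, p = 0.1, the smallest value possible). Reads assigned to several genes at once made up 1.80% ± 0.114 of the reads on 1 or more genes for CLPs, against 0.912% ± 0.0836 for B cell progenitors (SD, n = 3, exact two-sided permutation test, p = 0.1). Over all 24 libraries the no-gene share ran from 17.9% to 45.2% in CLPs and from 59.9% to 87.3% in B cell progenitors, so the populations were apart in this measure in every genotype. A processing or preparation step that differs with the population and the population itself cannot be told apart here, and the gene-level results below are given with this in view.

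**Figure D1:**
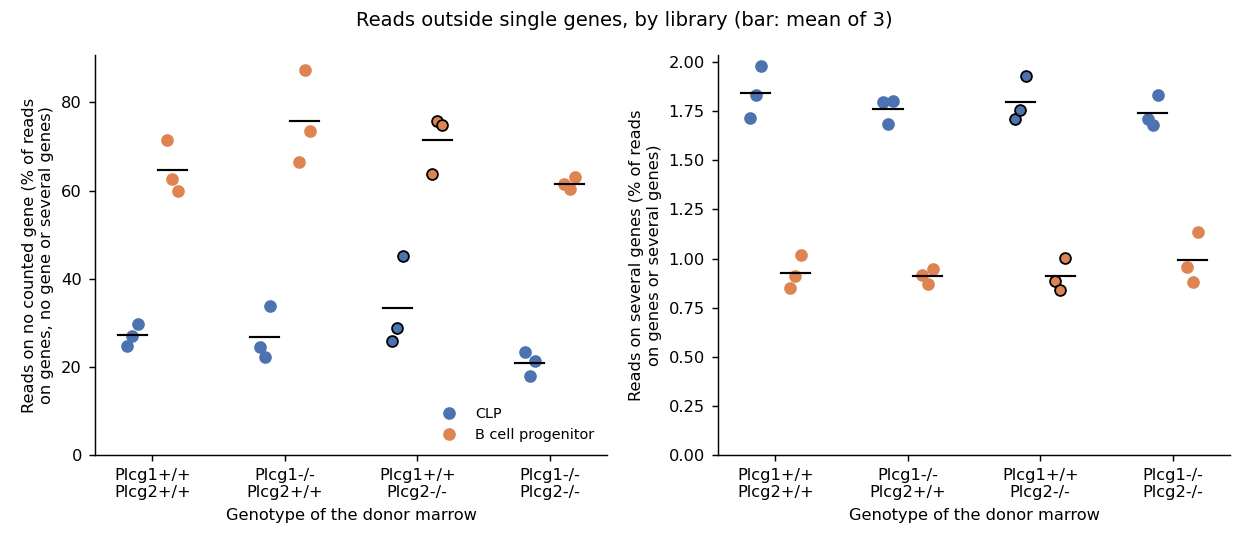
Share of reads on no counted gene (left, percent of all counted reads) and on several genes (right, percent of reads on genes or several genes) in each of the 24 libraries, by genotype. Points are libraries, bars are means of 3, and the Plcg1+/+Plcg2-/- libraries are outlined. The no-gene share of its B cell progenitors (63.8% to 75.8%) lies above that of its CLPs (25.9% to 45.2%).

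Without PLCγ2, 572 of 17212 genes (3.32%) were called between B cell progenitors and CLPs, of which 452 (2.63%) rose and 120 (0.697%) fell. The median log2 fold change of all genes tested was 0.08. Leaving out mouse 1, 2 or 3 left 358, 217 and 230 called genes, and 189 of the 572 were called in all 3 of these fits. The 3 B cell progenitor libraries lay wholly on one side of the 3 CLP libraries for 531 of the 572. Over all genes tested 11.1% were higher and 7.24% lower in this sense. The 572 were called on these same libraries, so their larger share follows in part from that selection and adds no support.

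The called genes were unevenly spread over classes of gene structure. Of the 2970 genes tested whose exons overlap exons of a gene on the other strand, 324 (10.9%) were called, 304 upward and 20 downward, and the risen ones had a median log2 fold change of 1.82. Of 6113 genes without such an overlap that share at least one exact 50-base word with another gene, 132 (2.16%) were called, 72 upward and 60 downward. Of 7448 genes with neither feature, 85 (1.14%) were called, 47 upward with a median of 0.60 and 38 downward with a median of -0.85. The other 31 called genes had no single position in the annotation. Among the 213 called genes that changed more than 3-fold, 173 carried an opposite-strand overlap, 171 of them upward. The library kit does not mark the strand per the labels, and how the counting treated strand is not given in the sources used here. Whether the counts separate reads of a gene from those of its opposite-strand partner is therefore not known. The share of reads assigned to several genes also went with the population, at 1.80% for CLPs against 0.912% for B cell progenitors. Whether the handling of such reads makes up these differences was not tested. The rises of overlapping genes are thus differences in counts, and whether their expression rose was not tested.

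**Figure D2:**
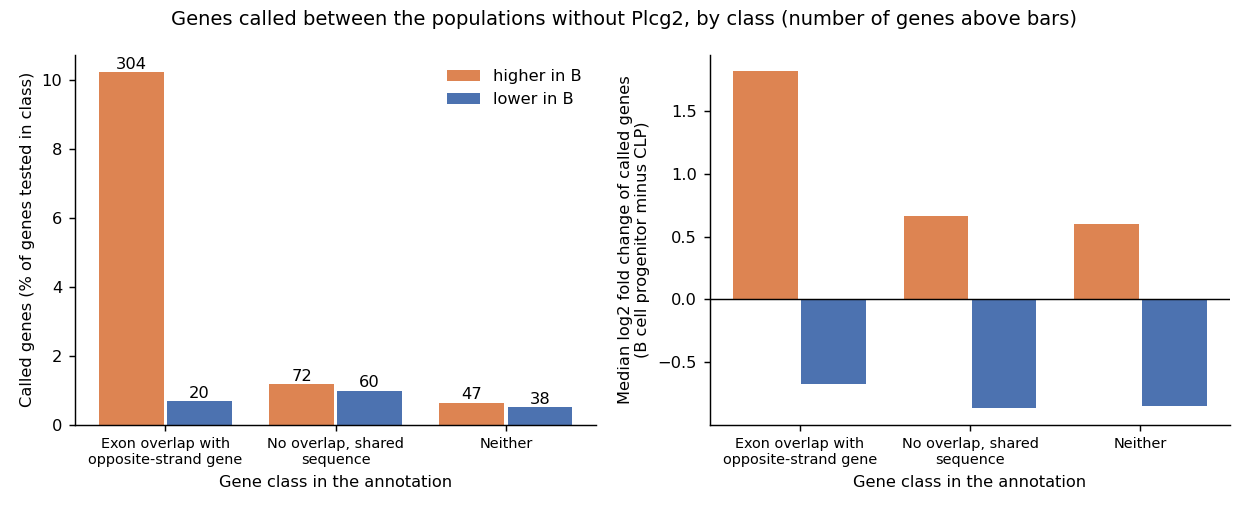
Called genes by class in the annotation, as percent of the genes tested in each class (left, numbers of genes above the bars) and as the median log2 fold change of the called genes (right). Genes with an exon overlap on the other strand hold 304 of the risen genes with a median of 1.82, against 47 with a median of 0.60 in the class with neither feature.

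Of the 10 steepest rises, 7 were of this overlapping kind. Bricd5, which encodes a BRICHOS domain protein, lies at chr17:24473884-24475469 (mm10) wholly inside exons of Mlst8 on the other strand. It had 0 reads in all 3 CLP libraries and 41, 307 and 17 reads in the B cell progenitors. This count was at least 213-fold higher against a floor of 3 reads over the CLP group. Mlst8, the mTOR complex subunit on the other strand, measured 26.7, 22.8 and 20.2 CPM in CLPs and 37.8, 32.7 and 28.0 CPM in B cell progenitors (0.50 ± 0.155, adjusted p = 0.101). Sco2, a copper chaperone of cytochrome oxidase whose exons overlap those of Ncaph2 over 66.2% of its length, was at least 184-fold higher, with 0 reads in every CLP library and 25, 302 and 18 in B cell progenitors. Msmp, a small secreted protein gene inside Rgp1, was at least 105-fold higher, and Gm10007, with no single position, at least 91.0-fold higher. Zfp385c, opposite Nkiras2, had 1, 0 and 1 reads in CLPs and 89, 401 and 41 in B cell progenitors, and 4933408J17Rik, opposite Snrpf, had 2, 5 and 0 against 116, 1229 and 122. LOC100503496 had 0, 2 and 0 against 103, 252 and 33. All 10 genes of the set of largest rises, which also holds the 3 microRNA genes described next, stayed called without mouse 1, 2 or 3. When all libraries were thinned to the depth of the smallest, Msmp and Mir142 lost the call and Gm10007 was not tested.

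Among these rises were 3 microRNA hairpins, which a poly(A) library reaches only as part of longer RNA, so the mature microRNAs were not measured. The counted hairpins are shown because they are the whole of what was counted for each gene. Sequences are RefSeq's for GRCm38.p6, 5′ to 3′, with the mature arms in capitals.
Mir1198: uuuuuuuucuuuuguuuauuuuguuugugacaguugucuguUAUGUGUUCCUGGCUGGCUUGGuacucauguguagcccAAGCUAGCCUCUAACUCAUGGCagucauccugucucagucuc
Mir142: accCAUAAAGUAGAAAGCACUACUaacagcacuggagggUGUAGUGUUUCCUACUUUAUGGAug
Mir762: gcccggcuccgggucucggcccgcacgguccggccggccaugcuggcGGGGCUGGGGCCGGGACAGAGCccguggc
The Mir1198 hairpin, at chrX:7807101-7807221 on the plus strand, lies in an intron of Gripap1 on the same strand. It overlaps no exon of a counted gene on the other strand, and exons of other genes on its own strand were not checked. It had 0, 1 and 0 reads in CLPs and 25, 442 and 53 in B cell progenitors, a fitted log2 fold change of 9.26 ± 0.687 (adjusted p = 2.58e-05). Mir142, the hairpin of a microRNA abundant in blood cells, at chr11:87756864-87756927, overlaps Mir142b on the other strand over its whole length. It had 0 reads in every CLP library and 20, 113 and 14 in B cell progenitors, at least 113-fold higher. Mir762, at chr7:127708487-127708562 inside Bcl7c, had 0 reads in CLPs and 24, 180 and 19 in B cell progenitors, at least 154-fold higher.

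The same arrangement was seen at well-studied loci. Gm15441, antisense to Txnip, rose from 0.574, 0.844 and 0.440 CPM in CLPs to 71.7, 70.0 and 53.3 CPM in B cell progenitors (6.64 ± 0.398, adjusted p = 1.33e-06). Txnip, a brake on glucose uptake, measured 297, 352 and 265 CPM and 361, 289 and 236 CPM, a difference of -0.06 ± 0.211 (adjusted p = 0.907). Both genes were chosen after their values were seen. Tsix, the antisense RNA of Xist, had 1, 5 and 0 reads in CLPs and 17, 127 and 17 in B cell progenitors (5.68 ± 0.653, adjusted p = 0.000599). Xist itself was not called (-1.51 ± 0.476, adjusted p = 0.104).

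The 85 called genes with neither feature are the ones whose counts are least shared with other genes. They depended on the mice: 29, 7 and 6 of them were called without mouse 1, 2 and 3, and 5 in all 3 fits. When the fit was made on the 7448 such genes alone, 5 were called, the same 5, and all 5 rose: Mir1198, Tmem206, Thyn1, Apoa2 and Mroh2a. The genes of this class other than Mir1198, Pacsin1 and Psap and the members of the gene lists were chosen after their values were seen. Tmem206, which encodes the proton-activated chloride channel, measured 43.5, 48.1 and 48.8 CPM in CLPs and 150, 194 and 177 CPM in B cell progenitors (1.89 ± 0.122, adjusted p = 2.04e-06). Thyn1 measured 11.8, 9.42 and 10.3 CPM and 40.2, 27.2 and 44.0 CPM (1.77 ± 0.162, adjusted p = 3.38e-05). Mroh2a measured 3.04, 7.47 and 12.8 CPM and 28.3, 79.3 and 65.3 CPM (3.02 ± 0.411, adjusted p = 0.000863). In these genes every B cell progenitor library lay above every CLP library.

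The distance of 4 of the 5 to the nearest gene of the other strand ran from 144 to 2540 bases. Mroh2a (chr1:88226986-88262289) ends 182 bases from Hjurp, the chaperone that loads the centromeric histone CENP-A, and Hjurp itself rose from 27.9, 31.1 and 31 CPM to 57.3, 94.9 and 80.0 CPM (1.35 ± 0.149, adjusted p = 0.000165). Thyn1 (chr9:26999710-27007336) lies 144 bases from Acad8. Tmem206 (chr1:191325912-191350914) lies 1061 bases from Ppp2r5a, a regulatory subunit of phosphatase 2A, which rose from 200, 147 and 159 CPM to 362, 426 and 353 CPM (1.18 ± 0.142, adjusted p = 0.000325). Apoa2 (chr1:171225054-171226379) lies 2540 bases from Tomm40l. Of the 47 risen genes of the class, which include Mroh2a and Thyn1, 10 (21.3%) lay within 1000 bases of an opposite-strand gene, against 22.4% of all 7448.

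Smaller rises of this class are given for 8 of the 47 genes, which do not stand for the others. Cbfb, the partner subunit of the RUNX factors that B and T cell development needs, rose from 239, 291 and 234 CPM to 345, 483 and 405 CPM (0.68 ± 0.0965, adjusted p = 0.00115). Cbfb was called without mouse 1 but not without mouse 2 (adjusted p = 0.0652) or mouse 3 (adjusted p = 0.137). Cul4b, a scaffold of ubiquitin ligases, rose from 103, 87.0 and 97.9 CPM to 155, 140 and 161 CPM (0.66 ± 0.115, adjusted p = 0.00584). Stag2, a cohesin subunit, rose from 337, 341 and 358 CPM to 445, 566 and 495 CPM (0.53 ± 0.118, adjusted p = 0.0272). Also called upward were Stag1, the paralogous cohesin subunit (0.50), Chek1, the checkpoint kinase (0.58), Ect2, the cytokinesis exchange factor (0.68), Mis18a, a centromere factor (0.55), and Mybl1 (1.10). Cul4b, Stag1, Stag2, Chek1, Ect2, Mis18a and Mybl1 each lost the call in every fit that left out 1 mouse. Without the mouse as a block 33 of the 47 rises stayed called, and Ect2, Stag1, Mis18a and Mybl1 did not (adjusted p of 0.0580 to 0.109). In all of these genes the B cell progenitor libraries lay above the CLP libraries.

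Of the 38 falls of this class 7 are given here, and they do not stand for the others, such as Baiap2, Pcyt2, Mks1, Ttll4 and Neurl4. Psap, the precursor of the saposins that help degrade sphingolipids in lysosomes, had the largest loss in CPM of all called genes, from 2942, 1715 and 2106 CPM to 2058, 1008 and 1322 CPM (-0.65 ± 0.103, adjusted p = 0.00283). It fell in each mouse, although the ranges of the populations overlapped, and its call rests on the pairing, with an adjusted p of 0.321 without the mouse as a block. Pld4, a nuclease of dendritic and B cells, fell from 305, 145 and 236 CPM to 215, 78.5 and 119 CPM (-0.79 ± 0.136, adjusted p = 0.00569). The proteases Ctsh (-0.89) and Ctse (-0.84), the kinase Fgr (-1.05), the receptor Tlr12 (-1.16) and the activation marker Cd83 (-1.36) also fell. Without the block 7 of the 38 falls stayed called, and Psap, Pld4, Ctsh, Ctse, Fgr, Tlr12 and Cd83 were not among them. Of the 38 falls, 15, 1 and 1 were called without mouse 1, 2 and 3, and Psap was called without mouse 1 (adjusted p = 0.00773) but not without mouse 2 (adjusted p = 0.0843) or mouse 3 (adjusted p = 0.0667). The median GC content of the longest transcript was 42.1% for the 47 risen genes, 55% for the 38 fallen genes and 49.8% for all 7448, and the part of GC content in these calls was not tested.

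The largest falls under the naming rule were mostly in lowly counted genes that share sequence with other genes. Dynlt1b, a dynein light chain gene with near-identical copies, fell from 7.51, 10.1 and 12.1 CPM to 1.59, 0.476 and 0.666 CPM (-3.72 ± 0.485, adjusted p = 0.000628), and 76.2% of its sampled 50-base words occur in another gene. Sec61g, a subunit of the channel that passes proteins into the endoplasmic reticulum, fell by 3.35 (SE 0.567, adjusted p = 0.00485), and Atp5l, a subunit of ATP synthase, fell by 2.84 (SE 0.505, adjusted p = 0.00701). Erh, a small nuclear protein, fell from 35.2, 37.5 and 49.5 CPM to 9.16, 9.52 and 18.7 CPM (-1.79 ± 0.215, adjusted p = 0.000322), and Gstp1, a glutathione transferase, from 44.9, 51.9 and 67.5 CPM to 14.3, 19.2 and 22 CPM (-1.55 ± 0.174, adjusted p = 0.000186). The other 5 were Klk1 (-2.35), Cmtr1 (-1.85), Pacsin1 (-1.75), Scamp3 (-1.72) and Ddr1 (-1.59). Erh and Cmtr1 are not among the genes with a single position and no opposite-strand exon overlap. Dynlt1b, Sec61g, Erh and Gstp1 were called whichever mouse was left out. Klk1, Cmtr1, Pacsin1 and Scamp3 were called in none of these fits, Ddr1 only without mouse 1, and Atp5l not without mouse 2 (adjusted p = 0.0504). How the study's counting handled reads that match several genes is not given in the sources used here, so all genes with shared sequence are uncertain.

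The genes that define B lineage entry were measured one group at a time, with 35 of the 745 tested members of 26 gene lists called in all, beside 3.32% of all genes tested. Among 26 B lineage transcription factors none was called by edgeR or by DESeq2, 5 had an unadjusted p under 0.05, and the median was 0.33 against 0.08 for all genes. The median over this list was -0.11 in mouse 1, 0.86 in mouse 2 and 0.32 in mouse 3. Ebf1, which opens B lineage genes, measured 266, 206 and 360 CPM in CLPs and 235, 757 and 631 CPM in B cell progenitors (0.84 ± 0.469, adjusted p = 0.359). Pax5, which holds cells in the B lineage, measured 136, 69.8 and 135 CPM and 113, 213 and 124 CPM (0.41 ± 0.470, adjusted p = 0.666). Foxo1, which drives Rag and Il7r transcription, measured 167, 126 and 177 CPM and 157, 355 and 222 CPM (0.58 ± 0.307, adjusted p = 0.335). In each of the 3 genes mouse 1 was lower and mouse 2 the highest of the B cell progenitors, and the populations overlapped.

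The list of the pre-B cell receptor had a median of -0.15 in mouse 1, 0.88 in mouse 2 and -0.02 in mouse 3. Of 24 genes for the receptor and its adaptors, none was called by edgeR or DESeq2, 2 had an unadjusted p under 0.05, and the median was 0.22. Igll1, one part of the surrogate light chain, measured 169, 200 and 573 CPM in CLPs and 172, 465 and 675 CPM in B cell progenitors (0.50 ± 0.433, adjusted p = 0.561). Vpreb1, the other part, measured 113, 121 and 273 CPM and 76.9, 223 and 263 CPM (0.11 ± 0.443, adjusted p = 0.923). Blnk, the adaptor that brings PLCγ2 to Btk, measured 227, 200 and 324 CPM and 206, 506 and 411 CPM (0.52 ± 0.354, adjusted p = 0.457). The 27 B cell surface genes also had no call by edgeR (2 with an unadjusted p under 0.05, median 0.03), and DESeq2 called 1, Ly6d, lower.

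Genes of V(D)J recombination and end joining had no call among 21 by edgeR (4 with an unadjusted p under 0.05, median 0.20), and DESeq2 called 1, H2afx, higher. Rag1, a subunit of the recombinase, measured 449, 298 and 499 CPM in CLPs and 471, 914 and 429 CPM in B cell progenitors (0.48 ± 0.441, adjusted p = 0.578). Rag2, the other subunit, measured 33.8, 54.8 and 52.8 CPM and 57.3, 129 and 66.0 CPM without overlap (0.80 ± 0.314, adjusted p = 0.195). Dntt, the polymerase that adds untemplated bases to the joints, measured 117, 1155 and 474 CPM and 115, 155 and 576 CPM. The Dntt fall in mouse 2 stood against near-equal values in mouse 1, and the gene was not called (-0.82 ± 0.557, adjusted p = 0.452).

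In the IL-7 pathway 1 of 26 genes was called, Ccnd3, and the list median was -0.10. Il7r, the receptor chain used for both sorts, measured 146, 496 and 181 CPM in CLPs and 159, 463 and 249 CPM in B cell progenitors (0.16 ± 0.120, adjusted p = 0.506). Its level differed more between mice than between populations, with both libraries of mouse 2 highest. Jak1 measured 273, 398 and 231 CPM and 275, 262 and 277 CPM (-0.12 ± 0.234, adjusted p = 0.819), and Jak3 94.3, 161 and 87.5 CPM and 64.1, 64.4 and 78.6 CPM (-0.70 ± 0.302, adjusted p = 0.235). Stat5a differed by -0.28 ± 0.196 (adjusted p = 0.462) and Stat5b by -0.36 ± 0.227 (adjusted p = 0.413). Ccnd3, the D cyclin of dividing pro-B and pre-B cells, rose from 432, 551 and 406 CPM to 493, 947 and 767 CPM (0.63 ± 0.15, adjusted p = 0.0376), with overlapping ranges. Ccnd3 kept its call without mouse 1 (adjusted p = 0.0262) and lost it without mouse 2 (adjusted p = 0.445) or mouse 3 (adjusted p = 0.414). It is not among the genes with a single position and no opposite-strand exon overlap.

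Downstream of PLCγ, none of 50 genes of the phospholipase C family and of its diacylglycerol and calcium effectors was called by edgeR or DESeq2, 7 had an unadjusted p under 0.05, and the median was -0.03. Prkcb, a protein kinase C that answers to diacylglycerol, measured 375, 209 and 344 CPM in CLPs and 331, 567 and 352 CPM in B cell progenitors (0.43 ± 0.354, adjusted p = 0.538). Rasgrp1, a Ras activator with a diacylglycerol-binding domain, measured 50.3, 50.04 and 45.3 CPM and 50.6, 38.4 and 25.3 CPM (-0.37 ± 0.412, adjusted p = 0.652). Plcb2, the phospholipase downstream of G protein-coupled receptors, measured 198, 185 and 174 CPM and 191, 84.4 and 80.0 CPM (-0.77 ± 0.346, adjusted p = 0.258), near equal in mouse 1 and below all CLPs in mice 2 and 3. In the list of 41 mTOR genes 2 were called. Fnip1, the folliculin partner that pro-B cells need, rose from 74.0, 51.2 and 63.6 CPM to 108, 77.6 and 97.3 CPM (0.58 ± 0.113, adjusted p = 0.0120), and Lamtor4, a subunit of the Ragulator complex on lysosomes, fell from 70.9, 55.3 and 48.0 CPM to 46.6, 24 and 39.3 CPM (-0.73 ± 0.184, adjusted p = 0.0482). Both lost their calls in every fit without 1 mouse, and Mtor itself differed by 0.03 ± 0.217 (adjusted p = 0.964).

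**Figure D3:**
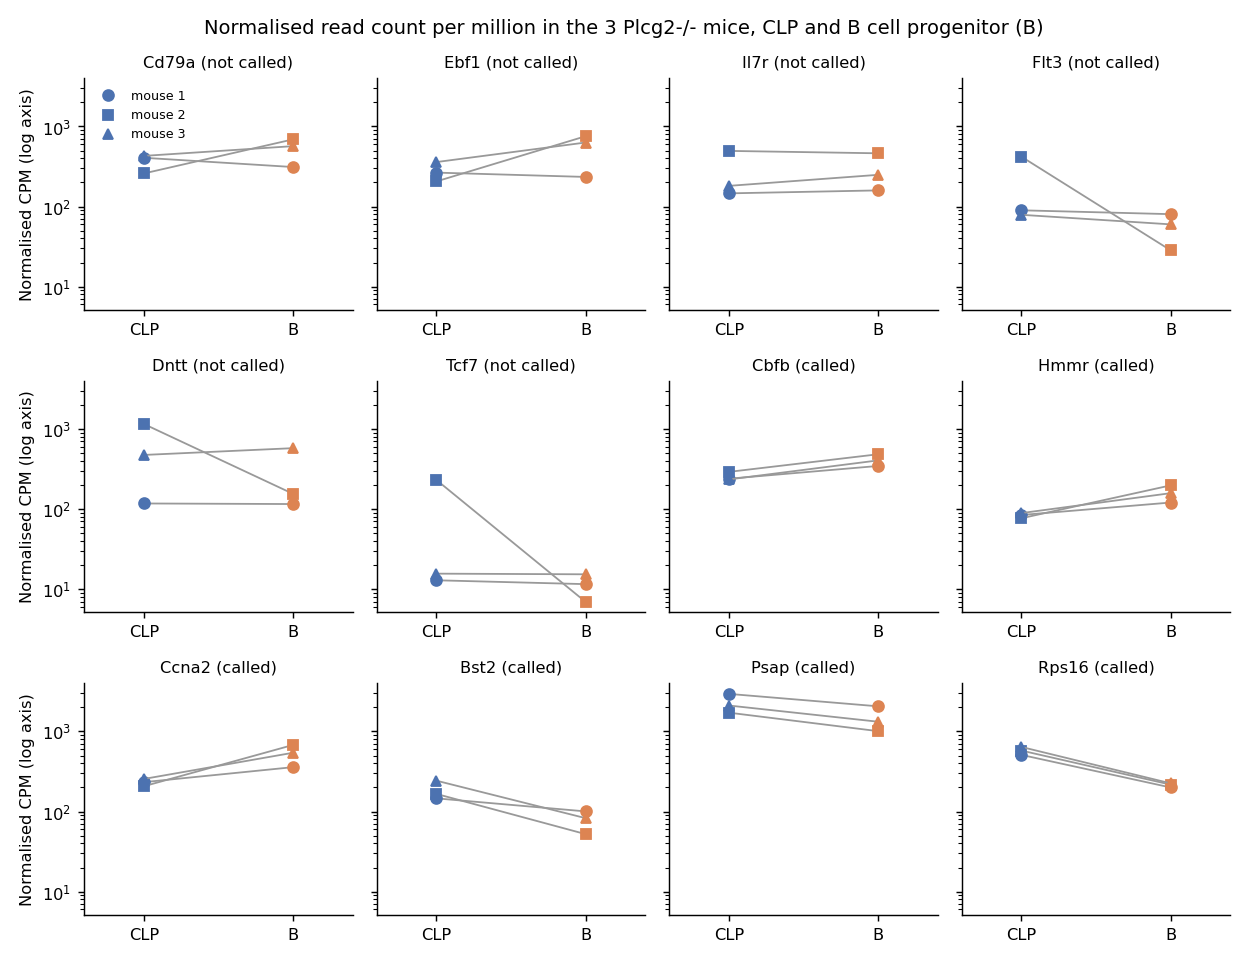
Normalised CPM (log axis) of 12 genes in the CLP and B cell progenitor (B) library of each Plcg1+/+Plcg2-/- mouse, joined by mouse. Cd79a, Ebf1, Il7r, Flt3, Dntt and Tcf7 move in different directions between mice or rest on mouse 2, while Cbfb, Hmmr, Ccna2, Bst2, Psap and Rps16 move the same way in all 3 and were called.

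Genes of mitosis were higher in B cell progenitors as a group of values, with few calls. Of 40 mitosis and G2/M genes, 39 had a log2 fold change above 0, 28 had an unadjusted p under 0.05, and 2 were called, against 9779 of 17212 above 0 and 3223 with such a p over all genes tested. The list median was 0.56, and it was 0.09 in mouse 1, 1.02 in mouse 2 and 0.60 in mouse 3. Ccna2, the cyclin of S phase and G2, rose from 233, 207 and 255 CPM to 358, 678 and 542 CPM (1.14 ± 0.285, adjusted p = 0.0457). It overlaps Exosc9 on the other strand over 12.5% of its exons. Hmmr, which organises the spindle, rose from 84.3, 76.8 and 89.1 CPM to 121, 198 and 158 CPM (0.91 ± 0.228, adjusted p = 0.0465). Both calls were lost in every fit that left out 1 mouse, with adjusted p between 0.0619 and 0.438 and differences between 0.61 and 1.31. DESeq2 called 6 of the list, adding Ccnb1, Kif11, Kif20a and Nusap1.

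Other members of the list show the same order of mice. Kif11, the kinesin that pushes spindle poles apart, measured 276, 235 and 268 CPM in CLPs and 334, 623 and 462 CPM in B cell progenitors (0.82 ± 0.234, adjusted p = 0.0759). Mki67, the proliferation marker, measured 1304, 1079 and 1249 CPM and 1249, 2207 and 1499 CPM (0.41 ± 0.236, adjusted p = 0.375). Top2a, which untangles chromosomes, measured 1085, 1040 and 1146 CPM and 1145, 2186 and 1729 CPM (0.58 ± 0.232, adjusted p = 0.2). In each, mouse 2 had the widest gap and mouse 1 the narrowest. Among 44 DNA replication genes none was called by edgeR (13 with an unadjusted p under 0.05, median 0.14), and DESeq2 called 3 higher, among them Prim2 and Rrm1. Ccne2, the cyclin of the G1 to S transition, rose 4.2-fold, from 22.1, 27.3 and 31.5 CPM to 94.4, 133 and 109 CPM (2.07 ± 0.222, adjusted p = 0.000126), and it shares 17.4% of its exon bases with Ints8 on the other strand.

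The promoters of Hmmr and Kif11 are shown because CCAAT boxes and the CHR element TTTGAA are the textbook elements of genes transcribed in G2 and M. Each is the 250 bases before the RefSeq start on GRCm38.p6, 5′ to 3′ on the gene's own strand, with matches on either strand in capitals. ATTGG is CCAAT and TTCAAA is TTTGAA read on the other strand.
Hmmr, chr11:40733438-40733687, minus strand: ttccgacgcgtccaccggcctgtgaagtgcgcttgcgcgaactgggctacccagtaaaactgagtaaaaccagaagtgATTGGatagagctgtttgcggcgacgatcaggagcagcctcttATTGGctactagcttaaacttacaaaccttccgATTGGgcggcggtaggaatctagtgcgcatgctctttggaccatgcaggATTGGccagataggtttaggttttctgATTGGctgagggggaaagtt
Kif11, chr19:37376132-37376381, plus strand: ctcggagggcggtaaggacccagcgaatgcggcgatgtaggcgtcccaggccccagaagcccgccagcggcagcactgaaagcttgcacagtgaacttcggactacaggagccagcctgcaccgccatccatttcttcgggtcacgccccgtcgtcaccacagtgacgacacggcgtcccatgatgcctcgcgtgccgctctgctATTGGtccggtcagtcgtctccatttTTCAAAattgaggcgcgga
The Hmmr window holds 5 CCAAT matches and the Kif11 window 1 CCAAT and 1 TTTGAA match. CCAAT occurred on either strand in 29 of the 36 mitosis genes with a window (80.6%) and in 33.8% of all 32851 windows, and TTTGAA in 14 of 36 (38.9%) and 16%. At least 4 CCAAT matches were found in 0.840% of all windows. A match describes the letters and shows no binding.

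Among the 26 lists the cytosolic ribosomal protein genes held the most calls: 17 of 71 fell, beside 0.697% of all genes tested, none rose by edgeR or DESeq2, and 2 of 71 had a log2 fold change above 0. The median was -0.37, with -0.30, -0.45 and -0.41 in mice 1, 2 and 3, so that this list differed little between mice. Rps16, of the small subunit, fell from 509, 577 and 640 CPM to 200, 216 and 225 CPM (-1.42 ± 0.0887, adjusted p = 1.51e-06). Rpl10a, of the large subunit, fell from 392, 414 and 480 CPM to 179, 183 and 217 CPM (-1.15 ± 0.0935, adjusted p = 1.27e-05). Rpl29 fell from 239, 255 and 276 CPM to 118, 129 and 163 CPM (-0.92 ± 0.101, adjusted p = 0.000146), and Rps7 from 526, 607 and 623 CPM to 350, 326 and 372 CPM (-0.74 ± 0.1, adjusted p = 0.000808). In these 4 genes the populations did not overlap.

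Of 71 ribosomal protein genes 69 had a log2 fold change below 0 but 54 were not called, and counts of this family are shared. Rpl14 measured 696, 739 and 887 CPM in CLPs and 722, 630 and 800 CPM in B cell progenitors (-0.11 ± 0.103, adjusted p = 0.594), while its pseudogene Rpl14-ps1 rose from 13.1, 14.8 and 18 CPM to 33.5, 28.9 and 38.7 CPM (1.13 ± 0.172, adjusted p = 0.00214). Rpl37 differed by -0.23 ± 0.105 (adjusted p = 0.268), and its retrotransposed copy Rpl37rt rose (1.28 ± 0.165, adjusted p = 0.000568). The pseudogene Rpl14-ps1 and Rpl37rt were chosen after their values were seen. Of the 17 falls, 16, 9 and 11 were called without mouse 1, 2 and 3, and 9 in all 3 fits (Rpl10a, Rpl18, Rpl27, Rpl27a, Rpl28, Rpl29, Rps16, Rps23 and Rps7). Rps16 shares 40.7% of its sampled words with other genes. Of the 17, 14 have a single position and no opposite-strand exon overlap, and Rpl18, Rpl28 and Rpl35 do not. None of the 17 could be tested in the class with neither feature, and the share of reads on no gene, which moves with the population, and the part of shared sequence in these falls were not tested. Fau, which encodes the precursor of a ribosomal protein and a ubiquitin-like peptide, also fell, from 584, 586 and 704 CPM to 294, 328 and 367 CPM (-0.92 ± 0.0950, adjusted p = 9.64e-05).

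Metabolic lists held few calls, although most glycolysis genes were lower in B cell progenitors. Of 25 glycolysis genes 2 fell, beside 0.697% of all genes tested, and none rose. Their log2 fold change was below 0 for 22 and above 0 for 3, with a median of -0.48 (-0.25, -0.86 and -0.17 in mice 1, 2 and 3). An unadjusted p under 0.05 was found for 10, and DESeq2 called 4, all lower: Pfkm, Gapdh, Pgam1 and Ldhb. Eno1 had the lowest value (-6.70) and was not called. Gapdh fell from 491, 420 and 468 CPM to 254, 269 and 323 CPM (-0.71 ± 0.114, adjusted p = 0.00334), and it shares 28.3% of its sampled words with other genes, such as its pseudogenes. Gapdh is also not among the genes with a single position and no opposite-strand exon overlap. Pgam1, a mutase of lower glycolysis, fell by 0.59 (SE 0.149, adjusted p = 0.0461) and lost the call in every fit that left out 1 mouse. Of 50 oxidative phosphorylation genes 1 fell, Cycs, the soluble electron carrier cytochrome c, from 53.5, 48.4 and 58.1 CPM to 27.9, 26.7 and 34.7 CPM (-0.85 ± 0.126, adjusted p = 0.00167). The median of the oxidative phosphorylation list was 0.10. Bax, which opens the outer mitochondrial membrane in apoptosis, was the 1 call among 16 Bcl2 family genes (-0.54 ± 0.120, adjusted p = 0.0267), and it was called in none of the fits that left out 1 mouse.

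Genes of other lineages were mostly lower in B cell progenitors in mouse 2. The list of 43 T, NK and innate lymphoid genes had a median of -1.10, made of -0.16 in mouse 1, -2.63 in mouse 2 and -0.04 in mouse 3. Tcf7, the factor of early T and innate lymphoid cells, measured 12.9, 231 and 15.6 CPM in CLPs and 11.5, 6.93 and 15.3 CPM in B cell progenitors (-2.05 ± 1.30, adjusted p = 0.419). Gata3 measured 3.84, 125 and 6.38 CPM and 3.58, 1.43 and 4.67 CPM (-3.67 ± 2.14, adjusted p = 0.381), and Rora 6.42, 193 and 12.1 CPM and 4.78, 5.18 and 6 CPM (-3.12 ± 1.65, adjusted p = 0.338). The CLP library of mouse 2 stood apart in all 3 genes. Without mouse 2 the differences were -0.16 for Tcf7, -0.32 for Gata3 and -0.76 for Rora. The 1 call of the list was Cd247, a T cell receptor chain gene that shares 56.4% of its exon bases with Pou2f1 on the other strand, and it rose from 4.88, 14 and 4.18 CPM to 37.0, 41.7 and 31.3 CPM (2.38 ± 0.544, adjusted p = 0.0323), a call lost whichever mouse was left out.

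Stem and multipotent progenitor genes followed the same mice, with a median of -0.57 over 33 genes and -0.07, -1.01 and -0.34 in mice 1, 2 and 3. None was called by edgeR or DESeq2, and 5 had an unadjusted p under 0.05. Flt3, the receptor that marks lymphoid-primed progenitors, measured 89.9, 419 and 79.0 CPM in CLPs and 80.4, 28.4 and 59.98 CPM in B cell progenitors (-1.44 ± 1.01, adjusted p = 0.469). Kit, the stem cell factor receptor, measured 135, 112 and 71.9 CPM and 143, 29.6 and 56.0 CPM (-0.74 ± 0.469, adjusted p = 0.417). The 21 immediate early genes had a median of -0.74 but ran to -0.87, -1.60 and 0.83 in the 3 mice, with no call by edgeR or DESeq2 and none with an unadjusted p under 0.05. Egr1 measured 164, 783 and 245 CPM in CLPs and 53.0, 97.8 and 567 CPM in B cell progenitors, lower in mice 1 and 2 and higher in mouse 3.

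Of 20 dendritic cell genes 4 fell, beside 0.697% of all genes tested, none rose, and the list had a median of -0.90 (-0.34, -1.57 and -0.85 in mice 1, 2 and 3). DESeq2 called 9, all lower. Bst2, the interferon-induced surface protein that tethers virions and marks plasmacytoid dendritic cells, fell from 146, 166 and 243 CPM to 100, 52.2 and 82.6 CPM (-1.26 ± 0.240, adjusted p = 0.0112) without overlap. The other calls were Klk1, Pacsin1 and Clec10a (-1.27 ± 0.309, adjusted p = 0.0407). Siglech, the defining marker of plasmacytoid dendritic cells, measured 90.9, 157 and 183 CPM in CLPs and 72.1, 46.5 and 72.6 CPM in B cell progenitors (-1.16 ± 0.342, adjusted p = 0.0858). The markers Siglech, Clec9a and Xcr1 summed to 107 to 198 CPM in CLPs and to 52.2 to 89.6 CPM in B cell progenitors. The sums did not overlap (exact two-sided permutation test, p = 0.1, the smallest value possible). Siglech made up most of each sum, it was the only 1 of the 3 markers without overlap, and none of them was called. The part of such cells in these falls was not tested. Bst2 and Clec10a were called without mouse 1, and none of the 4 was called without mouse 2 or mouse 3, where Bst2 had adjusted p of 0.186 and 0.155. None of the 4 was called without the mouse as a block (adjusted p of 0.0807 for Bst2, 0.105 for Klk1 and Pacsin1 and 0.310 for Clec10a).

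The Bst2 promoter is shown because the core of the interferon-stimulated response element, GAAA, any 2 bases and GAAA, is the element through which interferon induces such genes. It is the 250 bases before the RefSeq start (GRCm38.p6), 5′ to 3′ on the gene's strand, with the matches in capitals, which overlap and run together.
Bst2, chr8:71537473-71537722, minus strand: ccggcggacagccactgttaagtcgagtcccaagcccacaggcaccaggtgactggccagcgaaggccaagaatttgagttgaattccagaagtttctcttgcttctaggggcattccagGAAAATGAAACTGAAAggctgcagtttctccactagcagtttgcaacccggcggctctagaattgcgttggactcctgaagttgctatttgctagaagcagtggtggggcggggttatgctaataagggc
The motif was found on either strand in 11 of 25 interferon-stimulated genes with a window (44.0%) and in 2.98% of all windows. Among the 27 interferon-stimulated genes tested 2 fell, Bst2 and Mx1 (-0.81 ± 0.192, adjusted p = 0.0374), and the median was -0.28. Mx1, an antiviral GTPase, measured 23.9, 12.9 and 24 CPM in CLPs and 19.1, 5.71 and 12.7 CPM in B cell progenitors and was called without mouse 1 (adjusted p = 0.0200) but not without mouse 2 (adjusted p = 0.444) or mouse 3 (adjusted p = 0.221). Isg15, another strongly inducible gene of the list, measured 4.02, 5.16 and 6.82 CPM and 4.38, 2.54 and 8 CPM (-0.29 ± 0.291, adjusted p = 0.615). Of 40 myeloid genes none was called by edgeR (12 with an unadjusted p under 0.05, median -0.39), while DESeq2 called 5, all lower: Csf3r, Itgam, Itgax, Lyz2 and Cd68.

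The remaining lists held at most 1 call. Of 11 MHC class II genes 1 fell, H2-DMb1, part of the peptide-loading chaperone, from 40.5, 24.9 and 34.3 CPM to 23.9, 12.5 and 21.3 CPM (-0.83 ± 0.179, adjusted p = 0.0241), and the call was lost whichever mouse was left out. No gene was called by edgeR among 26 homing and adhesion receptors (4 with an unadjusted p under 0.05, median -0.34, and 2 called lower by DESeq2, Ccr9 and Itga5), 28 genes of cholesterol and fatty acid synthesis (4, median 0.03, and 1 called lower by DESeq2, Fdps), 22 erythroid, megakaryocyte and mast cell genes (2, median -0.46, and 0 by DESeq2) and 18 plasma cell and mature B cell genes (2, median -0.14, and 0 by DESeq2).

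**Figure D4:**
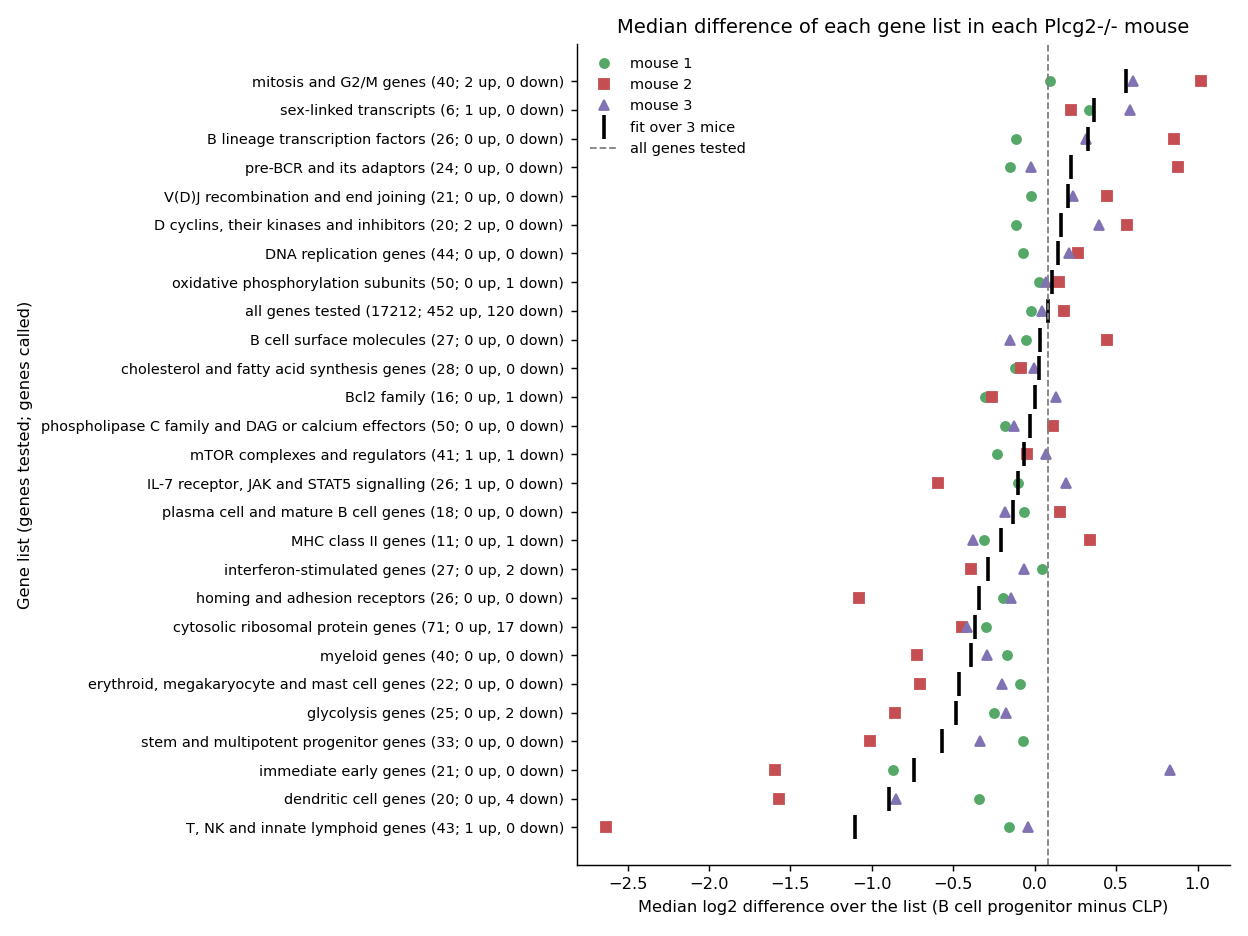
Median log2 difference of each gene list, B cell progenitor minus CLP, in each of the 3 Plcg1+/+Plcg2-/- mice (points) and in the fit over all 3 (black ticks), with the number of genes tested and called beside each list and the median of all genes (0.08) as a dashed line. Ribosomal protein genes stay between -0.45 and -0.30 in the 3 mice, while T, NK and innate lymphoid genes run from -2.63 in mouse 2 to -0.04 in mouse 3.

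The 5 called genes with the largest gains in CPM rose 1.5-fold to 1.7-fold. Dek, a chromatin protein, rose from 612, 539 and 762 CPM to 951, 1188 and 1102 CPM (0.77 ± 0.196, adjusted p = 0.0498). Smc4, a condensin subunit, rose from 533, 561 and 708 CPM to 699, 1207 and 1178 CPM (0.74 ± 0.178, adjusted p = 0.0381), and Tmpo, a lamina protein, from 642, 671 and 627 CPM to 787, 1258 and 1024 CPM (0.64 ± 0.143, adjusted p = 0.0297). Ptbp3, a splicing regulator of blood cells, rose from 594, 505 and 498 CPM to 846, 911 and 820 CPM (0.69 ± 0.108, adjusted p = 0.00260). Hnrnpab, an RNA-binding protein, rose by 0.58 ± 0.113 (adjusted p = 0.0127) and shares 29.1% of its exon bases with Phykpl on the other strand. Dek, like Hnrnpab, is not among the genes with a single position and no opposite-strand exon overlap. Dek and Smc4 lost the call in every fit without 1 mouse, and Tmpo, Ptbp3 and Hnrnpab kept it without mouse 1 only.

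Whether the step from CLP to B cell progenitor differed without PLCγ2 was tested directly, as a difference of differences. Against Plcg1+/+Plcg2+/+ edgeR called 0 of 17212 genes (0%), with 168 (0.976%) at an unadjusted p under 0.05, and DESeq2 called 0 with 242. A share of 0.976% is below the 0.05 of genes that a calibrated test reaches where nothing differs. The test was thus strict on these libraries, and 0 calls do not show that the steps were equal. Against Plcg1-/-Plcg2+/+ edgeR called 0 (327 at an unadjusted p under 0.05) and DESeq2 0 (396). Against Plcg1-/-Plcg2-/- edgeR called 0 (651, or 3.78%) and DESeq2 1 (761), Ctsl, a lysosomal protease, with a difference of -1.49 ± 0.312 (DESeq2 adjusted p = 0.0330). edgeR gave Ctsl a difference of -1.47 ± 0.276 (adjusted p = 0.993), and the gene was chosen after its value was seen. On simulated counts at these depths edgeR recovered 71% of genes whose step differed by 2 log2 units from that of Plcg1+/+Plcg2+/+ and 15% of those that differed by 1, so smaller differences were mostly not detectable. Changes were simulated only in genes above a minimum mean read count, so recovery in genes of low count was not measured. The simulation also gave each gene the same spread in all libraries. It therefore does not carry the uneven distance between the populations of the mice, and recovery in the real libraries can differ.

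The step called in the other genotypes held 620 genes (3.6%) in Plcg1+/+Plcg2+/+, 513 (2.98%) in Plcg1-/-Plcg2+/+ and 588 (3.42%) in Plcg1-/-Plcg2-/-. These steps share no library with Plcg1+/+Plcg2-/-. They come from the same fit, with the same filter and estimate of the spread, so the calls are not independent. Of the 572 genes called without PLCγ2, 410 were called in the same direction in Plcg1+/+Plcg2+/+, which is 71.7% of the 572 and 66.1% of the 620. For genes with an opposite-strand overlap the share was 282 of 324 (87.0%), and for the 85 genes with neither feature it was 25 (29.4%). The share over all 572 was 349 (61.0%) in Plcg1-/-Plcg2+/+ and 345 (60.3%) in Plcg1-/-Plcg2-/-, and over the 85 genes it was 11 (12.9%) and 12 (14.1%). The risen genes Tmem206, Thyn1 and Mroh2a had differences of 1.99, 1.82 and 3.37 in Plcg1+/+Plcg2+/+. Bst2 had -0.995 in Plcg1+/+Plcg2+/+, -0.57 in Plcg1-/-Plcg2+/+ and 0.22 in Plcg1-/-Plcg2-/-, side by side with its -1.26 without PLCγ2, and none of these differences between genotypes was called.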

How the data were processed

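Per the submitters' processing notes, reads of poly(A) RNA from sorted cells were aligned with STAR 2.5.0a to mm10, and the authors deposited raw read counts for 24421 gene symbols per library. The counting program is not given in the sources used here. Rows of reads on no gene and of ambiguous reads were kept out of library sizes and tests, and their shares are given in the text.

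Counts of all 24 libraries were fitted with edgeR 4.0.16 in R 4.3.3 (TMM, filterByExpr, glmQLFit, glmQLFTest), with the 12 mice as blocks and 1 population term per genotype (8 residual degrees of freedom). The pairing comes from the mouse identifiers in the labels, and deviations of same-mouse libraries from their group means correlated at 0.530, -0.0482 and 0.248. Replicates of a group differed beyond sampling noise (chi-square over degrees of freedom 9.62 to 71.4). DESeq2 1.42.0 and other normalization, filters, depths, sample sets and blocks were alternatives, and fits on genes without overlap or shared sequence were added after seeing the data. On simulated data for this comparison edgeR recovered 83% of genes changed by 2 log2 units and 58% of those changed by 1, with 9 false calls among 16230 genes. These data had the same spread of a gene in all libraries, unlike the real ones.

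Positions are from GENCODE M21 (GRCm38), which placed 23334 symbols once, and 1 in 16 of the 50-base words of exons was compared between genes. Named are members of the gene lists, the 10 largest rises and 10 largest falls (at least 5 CPM in the higher population, same direction in 3 mice, no overlap), the 5 largest gains and losses in CPM and the targeted genes. Other genes are said to be chosen after their values were seen. The rule, the members and the lists were chosen with earlier results of these data known. Some genes are not reported here.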

Additional observations from a re-analysis of the deposited data

How the results depend on the processing

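The 572 called genes became 986 with DESeq2 (633 higher and 353 lower), 297 at a log2 threshold of 1, 299 in the 12 libraries of Plcg1+/+Plcg2-/- and Plcg1+/+Plcg2+/+, 59 on genes without opposite-strand overlap, where 28 rose and 31 fell, 5 of 7448 when genes with shared sequence were also left out, and 217 to 358 without 1 mouse. In the 6 libraries alone 179 were called with the replicate block and 177 without it, and in all 24 libraries without the replicate block 552 (473 higher and 79 lower), of which 456 are among the 572. Of genes named in the text, calls also lost without the block were those of Scamp3, Ddr1, Smc4, Ccnd3, Lamtor4, Cd247, H2-DMb1, Pgam1, Mx1, Rpl35 and Ctsl. Without the filter on low counts 432 were called, 289 higher and 143 lower, a more even split than 452 against 120. Of the 32 genes named by the rule 30 were called, which became 17 in the 6 libraries alone with or without the block, 16 to 24 without 1 mouse, 11 of the 18 without overlap and 1 of the 4 with neither feature. The 35 called list members became 62 with DESeq2, 11 in the 6 libraries with the block and 8 without it, 18 in the 12 libraries, 13 to 31 without 1 mouse, 15 without overlapping genes and 0 of 314 with neither feature. The count of genes whose step differed from Plcg1-/-Plcg2-/- was 0 by edgeR and 1 by DESeq2. The cause of these changes was not tested, except that fits on fewer libraries have fewer degrees of freedom. Of the 148 single genes followed through these fits, fewer where a fit left genes out, none reversed its direction. The median of all genes was 0.08 and moved by more than 0.1 without mouse 2 (-0.04) and on genes with neither feature (-0.03). B cell progenitor libraries 1 and 3, with 2393873 and 1479582 reads on genes, limit the precision for genes of low count.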
